A study of Mus musculus with 4 samples.

Results

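DNA replication and S phase genes were followed in sorted mouse blood progenitors with and without Trib1. The set comprised 40 listed genes, each taken where the array annotation gave its symbol alone to a probe set. Of these, 39 of the 18193 named genes were measured. No level of Chaf1a is analysed here, and it enters only the search of promoters. The arrays were made from Trib1-/- MDP, wild-type MDP, Trib1-/- GMP and wild-type GMP, 1 array per group and 4 in all. GMP are granulocyte monocyte progenitors, and the MDP samples carry the cell type label macrophage dendritic cell. The mice were of a mixed C57BL6J/129SV background, and the cells were unstimulated. The labels do not state the age of the mice, the sort gates, how many animals went into an array, or the form of the Trib1 allele. The values are RMA values taken as log2, so a difference of 1 is 2-fold. Because each group is a single array, the spread between animals or sorts is unknown and no test was made. In bulk samples, fewer cells in S phase and less RNA per cell cannot be told apart.

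Before a cell divides, the origin recognition complex marks the places where DNA synthesis will start, and Cdc6 and Cdt1 load the MCM helicase onto them. Cdc45 and the GINS complex switch the helicase on, polymerases copy the strands, and the PCNA clamp, placed by the RFC loader, holds the polymerases on DNA. The genes for these proteins and for the enzymes that make DNA precursors are known targets of E2F transcription factors, which are released when cyclin and kinase complexes act on the retinoblastoma protein. Myeloid progenitors such as GMP are known to divide rapidly.

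The promoters of 4 MCM genes are shown first because all 4 genes read lower in Trib1-/- GMP and in wild-type MDP than in wild-type GMP and hold E2F letters. Those of Dut and Cad are shown because these genes had the largest differences and hold none. Each run is the RefSeq window of GRCm38.p6 from 250 bases before to 50 bases after the start of the gene, 5′ to 3′ on the gene's own strand. Capitals mark TTTNNCGC, the E2F core searched on both strands, and capitals of overlapping matches run together.
Mcm3, chr1:20820263-20820562, minus strand: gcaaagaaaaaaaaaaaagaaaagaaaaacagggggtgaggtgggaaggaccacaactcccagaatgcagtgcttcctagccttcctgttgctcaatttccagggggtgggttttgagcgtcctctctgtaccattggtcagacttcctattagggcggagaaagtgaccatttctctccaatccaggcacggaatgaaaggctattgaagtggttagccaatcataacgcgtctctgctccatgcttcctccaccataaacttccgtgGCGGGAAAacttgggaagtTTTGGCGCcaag
Mcm5, chr8:75109259-75109558, plus strand: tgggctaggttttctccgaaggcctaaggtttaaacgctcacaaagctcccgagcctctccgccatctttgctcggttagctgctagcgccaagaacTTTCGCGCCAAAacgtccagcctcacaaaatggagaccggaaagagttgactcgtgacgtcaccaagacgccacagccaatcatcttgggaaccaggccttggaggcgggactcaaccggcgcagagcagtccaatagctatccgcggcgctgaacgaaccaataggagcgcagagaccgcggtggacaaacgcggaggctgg
Mcm6, chr1:128359656-128359955, minus strand: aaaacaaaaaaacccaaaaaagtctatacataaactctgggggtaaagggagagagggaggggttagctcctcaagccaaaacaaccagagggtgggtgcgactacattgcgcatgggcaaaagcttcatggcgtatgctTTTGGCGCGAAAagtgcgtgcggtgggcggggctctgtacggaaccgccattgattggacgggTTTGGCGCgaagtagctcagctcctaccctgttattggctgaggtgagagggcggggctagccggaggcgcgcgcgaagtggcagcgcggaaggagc
Mcm7, chr5:138171834-138172133, minus strand: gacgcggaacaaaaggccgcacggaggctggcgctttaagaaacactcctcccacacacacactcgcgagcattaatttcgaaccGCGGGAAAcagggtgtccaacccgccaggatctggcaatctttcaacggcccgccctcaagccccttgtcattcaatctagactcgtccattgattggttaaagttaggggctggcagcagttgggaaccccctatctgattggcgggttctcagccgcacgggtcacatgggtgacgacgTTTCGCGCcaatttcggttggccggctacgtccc
Dut, chr2:125247265-125247564, plus strand: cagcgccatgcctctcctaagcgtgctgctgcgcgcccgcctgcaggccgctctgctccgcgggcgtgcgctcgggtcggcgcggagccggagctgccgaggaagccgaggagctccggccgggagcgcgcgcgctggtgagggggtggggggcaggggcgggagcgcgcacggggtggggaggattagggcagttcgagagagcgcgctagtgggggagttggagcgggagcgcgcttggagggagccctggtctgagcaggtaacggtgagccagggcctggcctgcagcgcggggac
Cad, chr5:31054530-31054829, plus strand: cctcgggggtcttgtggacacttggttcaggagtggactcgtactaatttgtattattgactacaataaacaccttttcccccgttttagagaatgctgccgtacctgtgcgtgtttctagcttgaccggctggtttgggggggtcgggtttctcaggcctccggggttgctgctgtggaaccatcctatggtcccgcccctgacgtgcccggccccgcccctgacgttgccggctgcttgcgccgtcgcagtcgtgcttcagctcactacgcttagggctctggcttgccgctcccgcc

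Of the 33 listed genes with a RefSeq window, 14 (42.4%) held TTTNNCGC in at least 1 window, against 5.93% of the 27025 genes with a window and 5.17% of the 32851 windows. The 14 were Cdc6, Cdt1, Gins3, Lig1, Mcm3, Mcm5, Mcm6, Mcm7, Orc1, Pola1, Pold1, Rfc3, Tyms and Uhrf1. The stricter form TTTCCCGC was in 6 of the 33 (18.2%, against 1.24% of all genes and 1.07% of all windows) and TTTGGCGC in 5 (15.2%, against 0.585% and 0.514%). Both of these are also matches to TTTNNCGC. The Mcm6 window held 3 matches, at positions -110, -106 and -47 relative to the start, and the first pair overlap. The Mcm3 matches lie at positions 20 and 39, after the start. CCAAT, the box bound by NF-Y, was in 19 of the 33 (57.6%, against 41.1% and 37.4%). TTTGAA, the CHR letters of mitotic genes, was in 4 (12.1%, against 20.2% and 17.9%), and the E-box CACGTG in 4 (12.1%, against 8.09% and 7.15%). The comparison windows were not matched on base composition. The windows of 7 genes, Ccne2, Gins1, Gins2, Gins4, Mcm4, Pole and Rfc2, were not used here.

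The array medians over all 45101 probe sets were between 3.27 and 3.31. The median of all values, 3.29, served as a floor, and a gene had to reach it on at least 1 array. All 39 measured genes reached it, as did 11653 genes in total, and 37 of the 39 were above it on all 4 arrays. The 2 probe sets of Trib1 read 0.34 and 0.15 higher in Trib1-/- GMP and 0.41 and 0.43 lower in Trib1-/- MDP than in wild type. The probe positions relative to the deletion are not known, so Trib1 does not check the labels. Kit, a receptor that marks early progenitors, was below the floor on both MDP arrays, at 2.69 in Trib1-/- MDP and 2.43 in wild-type MDP, against 5.39 in Trib1-/- GMP and 6.01 in wild-type GMP. Csf1r and the other MDP markers of the list were above it there. The wild-type GMP array stood apart from the MDP arrays: across the genes above the floor it correlated at 0.883 with Trib1-/- MDP and 0.875 with wild-type MDP. Trib1-/- GMP correlated at 0.928 with Trib1-/- MDP and 0.922 with wild-type MDP. These are correlations across genes, which are not independent replicates. Every result below that uses wild-type GMP rests on that array.

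The replication genes were highest in wild-type GMP. This array gave the highest of the 4 values for 27 of the 39 genes (69.2%), against 37% of all genes above the floor. Wild-type MDP gave the lowest for 21 (53.8%, against 27.7%). Wild-type GMP was lowest for only 3, Orc1, Cdc45 and Tyms (7.69%, against 29.3%). For 16 genes both held (41.0%, against 17.3%), among them Mcm2, Mcm3, Mcm5, Mcm6, Pcna, Prim1, Dut and E2f1. The median of the 39 genes was 5.59 in Trib1-/- MDP, 5.30 in wild-type MDP, 5.53 in Trib1-/- GMP and 5.73 in wild-type GMP. The spiked bacterial controls BioB and BioC, which carry no mouse RNA, had the opposite order between the wild-type arrays. Their 5 probe sets averaged 10.7 in Trib1-/- MDP, 10.9 in wild-type MDP, 10.6 in Trib1-/- GMP and 10.2 in wild-type GMP, highest in the array where the gene median was lowest and lowest where it was highest. Their part in the result was not tested.

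**Figure D1:**
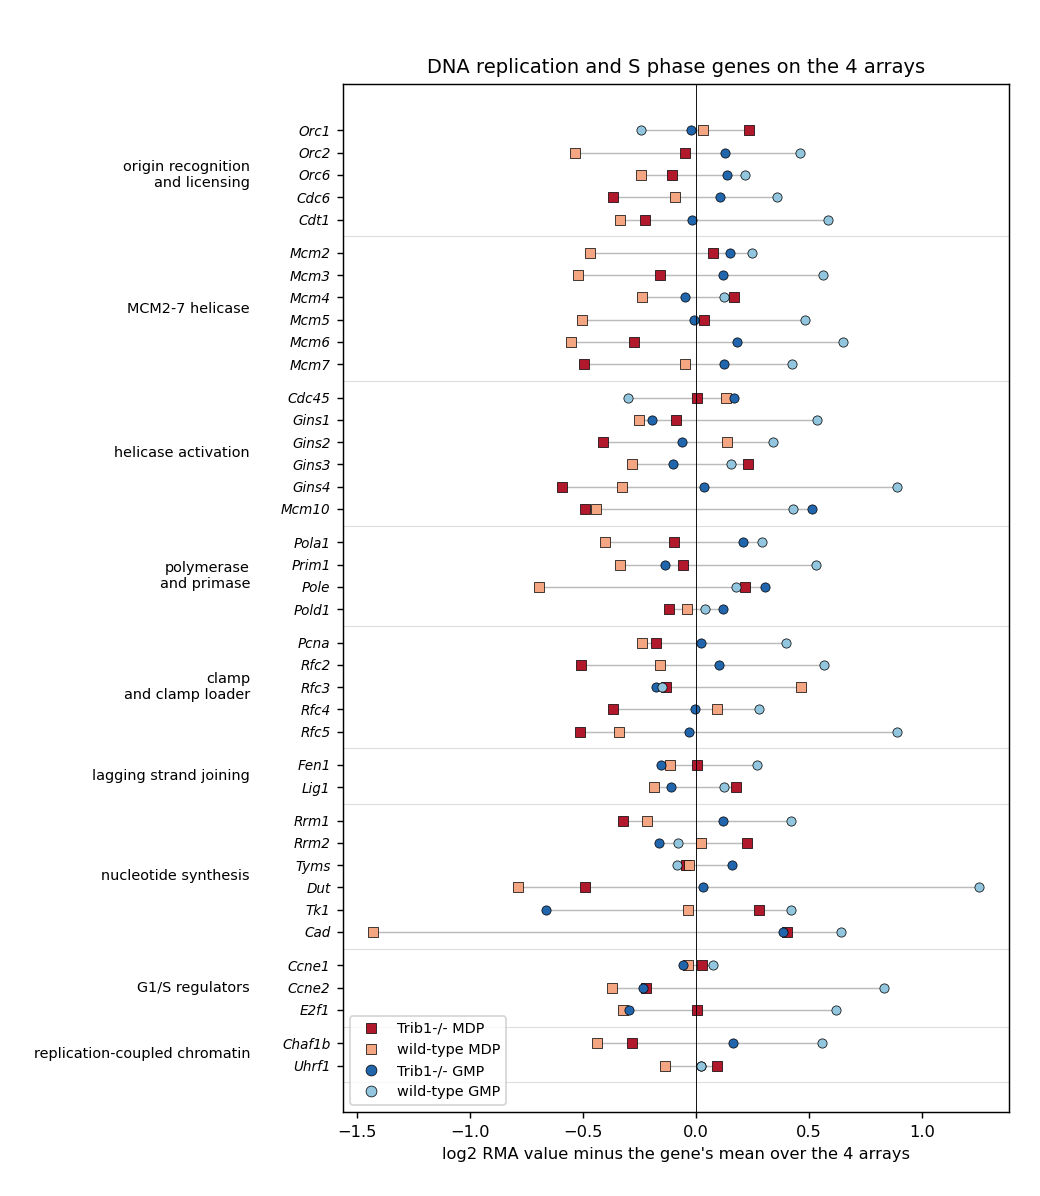
Log2 RMA value of each of the 39 measured genes on each of the 4 arrays, minus the gene's own mean over the arrays, with genes grouped by role down the page. Squares are MDP and circles GMP; wild-type GMP lies farthest right for 27 genes and wild-type MDP farthest left for 21.

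In GMP, loss of Trib1 went with lower values of most replication genes. Of the 39, 33 (84.6%) were lower in Trib1-/- GMP, against 55.2% of all genes, with a median difference of -0.30 against -0.06 over all genes. Higher were 6 (15.4%, against 44.6%). At least 2-fold lower were 3 (7.69%): Dut, Tk1 and Ccne2. Ccne2 reached the floor in wild-type GMP only, and with values raised to the floor it differed by -0.70, no longer 2-fold. Over all genes 3.16% were at least 2-fold lower and 0.481% at least 2-fold higher, and none of the 39 was at least 2-fold higher. With each array centred on its median over all genes above the floor, 27 of the 39 were lower (against 45.6% of all genes) and the median was -0.20, against 0.05 over all genes. Cell type markers also differed between these arrays. All 7 genes of a basophil and mast cell list were lower in Trib1-/- GMP, 4 of them at least 2-fold, with a summed linear signal of 199.7 in Trib1-/- GMP, against 483 in wild-type GMP, and only Gzmb below the floor, in Trib1-/- GMP. Of 8 GMP markers, 7 were lower (median -0.54), with a summed signal of 6629 in Trib1-/- GMP, against 7527 in wild-type GMP. Their part in the result was not tested.

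In MDP the direction was the opposite for most genes, and smaller. Of the 39, 26 (66.7%) were higher in Trib1-/- MDP, against 51.3% of all genes, with a median difference of 0.16 against 0.01. Lower were 13 (33.3%, against 48.5%). Only Cad was at least 2-fold higher, where 1.1% of all genes were, and none was at least 2-fold lower, where 1.53% were. The resident macrophage list moved with genotype on the same arrays: 7 of its 8 genes above the floor were at least 2-fold lower in Trib1-/- MDP, and its summed linear signal was 109 in Trib1-/- MDP, against 485 in wild-type MDP, with C1qa and C1qc below the floor on both and C1qb below it in the knockout. Its part in the result was not tested.

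Lower in Trib1-/- GMP and higher in Trib1-/- MDP were 24 of the 39 genes (61.5%), against 29.5% of all genes. These differences share no array. The 24 included Mcm2 to Mcm6, Orc2, Prim1, Pola1, Pcna, Fen1, Lig1, Dut, Tk1 and E2f1. Ccne2 is counted among them although both of its MDP values were below the floor. Counts are by the probe set used. For Ccne1, Cdt1, Dut, E2f1, Gins3, Mcm3 and Rrm2 another probe set above the floor went the other way in GMP or MDP. Lower in both were 9 (23.1%, near the 25.6% of all genes): Cdc6, Mcm7, Gins2, Gins4, Rfc2, Rfc3, Rfc4, Rfc5 and Rrm1. Of these, Mcm7, Rfc3 and Rrm1 had another probe set above the floor that went the other way in GMP or MDP. Higher in both were Orc1 and Pole (5.13%, against 21.6%).

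**Figure D2:**
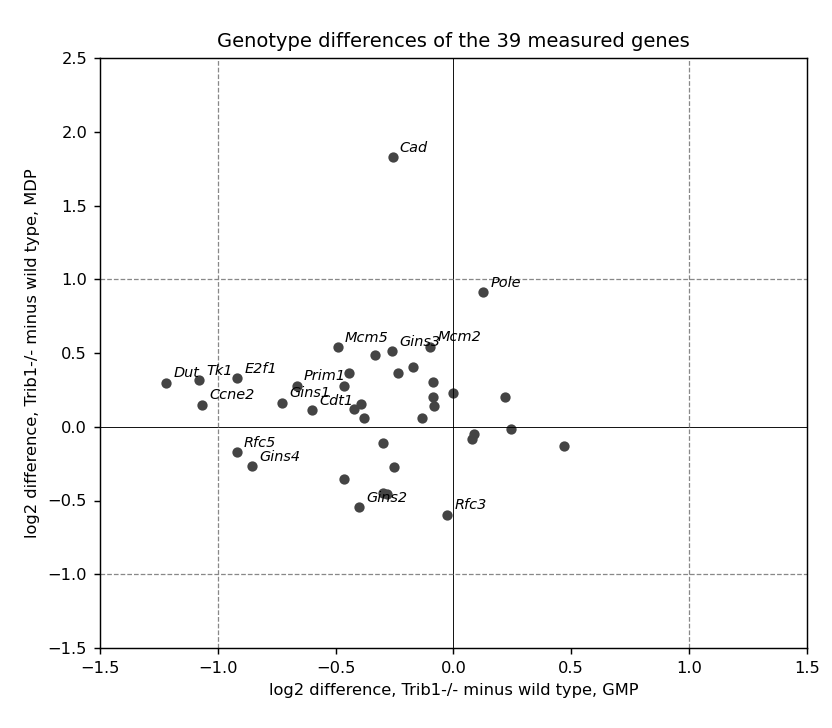
Log2 difference of Trib1-/- minus wild type in MDP (vertical axis) against the same in GMP (horizontal axis), with 1 point per gene for the 39 measured genes and dashed lines at 2-fold. The upper left field, lower in Trib1-/- GMP and higher in Trib1-/- MDP, holds 24 points, and Cad lies alone above the upper dashed line.

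Between the wild-type progenitors most replication genes read lower in MDP, while between the knockout progenitors the share was near that of all genes. In Trib1-/- MDP 23 of the 39 (59.0%) read lower than in Trib1-/- GMP, against 51.3% of all genes, and 16 higher (41.0%, against 48.4%), with a median of -0.17 against -0.01. Only Mcm10 was at least 2-fold lower (4.08% of all genes were) and none at least 2-fold higher (2.75%). In wild-type MDP 34 of the 39 (87.2%) read lower than in wild-type GMP, against 52.6% of all genes, and 5 higher (12.8%, against 47.2%), with a median of -0.64 against -0.04. At least 2-fold lower were 7 (17.9%, against 12.4% of all genes): Cad, Dut, Rfc5, Gins4, Ccne2, Mcm6 and Mcm3. Without Ccne2, whose wild-type MDP value was below the floor, they were 6. None was at least 2-fold higher, where 4.16% of all genes were. Other measures split the progenitors too. The signal of 3′ over 5′ control probe sets was higher in MDP: for the transferrin receptor the log2 difference was 3.22 in Trib1-/- MDP and 3.35 in wild-type MDP, against 2.28 in Trib1-/- GMP and 2.31 in wild-type GMP. For Gapdh it was 1.66 in Trib1-/- MDP and 1.44 in wild-type MDP, against 1.20 in Trib1-/- GMP and 1.06 in wild-type GMP, and for actin it did not split them. All 7 basophil and mast cell genes were at least 2-fold lower in wild-type MDP than in wild-type GMP. All 8 resident macrophage genes above the floor were at least 2-fold higher there. In wild-type MDP Gzmb, Cpa3, Hdc, Fcer1a and Ms4a2 did not reach the floor, nor did C1qb, Cd163 and Spic in wild-type GMP. These genes passed the floor through other arrays, which favoured their direction, and the sizes are uncertain. Above the floor on both arrays were Mcpt8 (-1.95) and Gata2 (-2.12). So were the macrophage genes Vcam1, Mrc1, Slc40a1, Adgre1 and Mertk, at 1.04 to 2.64. The part of these measures in the result was not tested. The difference between the progenitors was closer to 0 in the knockout for 30 of the 39 genes (76.9%), against 65.5% of all genes. The GMP genotype comparison and the wild-type progenitor comparison share the wild-type GMP array, so they are not independent.

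**Figure D3:**
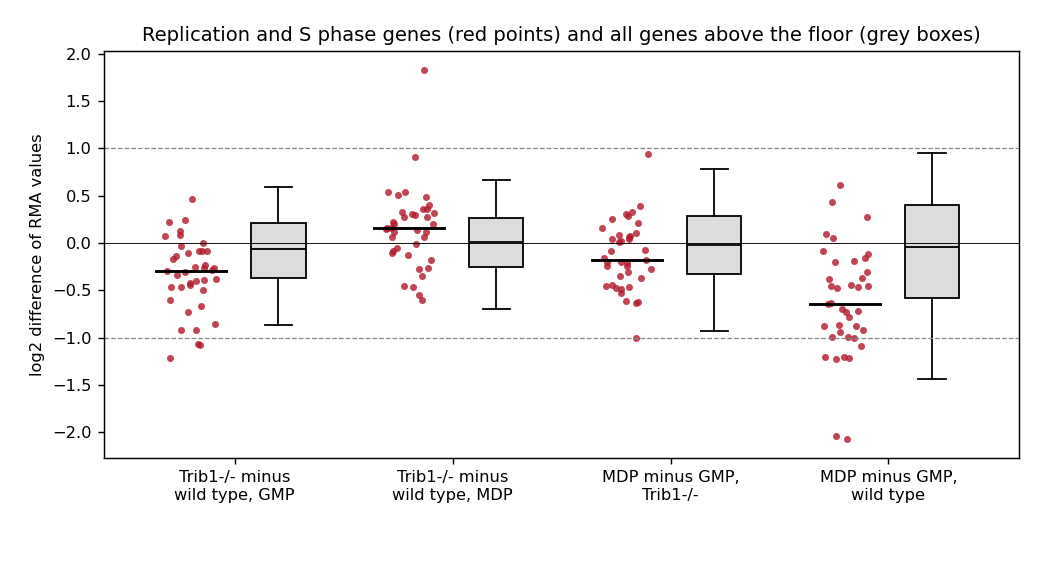
Log2 differences in the 4 comparisons, with a red point for each of the 39 genes and a black bar at their median; grey boxes show the quartiles and median of the 11653 genes above the floor, with whiskers from the 5th to the 95th percentile and dashed lines at 2-fold. The red median lies at -0.30, 0.16, -0.17 and -0.64 from left to right.

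The licensing genes were mostly lower in knockout GMP by less than 2-fold. Cdt1, the loading factor held in check by geminin, read 6.50 in Trib1-/- MDP, 6.39 in wild-type MDP, 6.71 in Trib1-/- GMP and 7.31 in wild-type GMP. Its difference between the GMP genotypes was -0.60, and its second probe set above the floor read -1.06 there and -0.07 in MDP, where the one used read 0.11. Cdc6, the ATPase that loads the helicase with Cdt1, read 4.22 in Trib1-/- MDP, 4.49 in wild-type MDP, 4.70 in Trib1-/- GMP and 4.95 in wild-type GMP, lower in the knockout of both progenitors by 0.25 to 0.27. Orc2, a core subunit of the origin recognition complex, differed by -0.33 in GMP and 0.49 in MDP, and its 3 probe sets gave the same directions. Orc6, its smallest subunit, differed by -0.08 and 0.14. Orc1, the ATPase subunit, stood against the others at 0.22 in GMP, but its second probe set read -0.26.

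The MCM genes encode the ring that unwinds DNA, and all 6 were lower in knockout GMP, by 0.10 to 0.49. Mcm6 read 7.16 in Trib1-/- MDP, 6.89 in wild-type MDP, 7.62 in Trib1-/- GMP and 8.09 in wild-type GMP. Mcm2 read 6.69 in Trib1-/- MDP, 6.15 in wild-type MDP, 6.76 in Trib1-/- GMP and 6.86 in wild-type GMP. Both were lowest in wild-type MDP and highest in wild-type GMP. In Trib1-/- MDP 5 of the 6 were higher than in wild type, by 0.28 for Mcm6, 0.36 for Mcm3, 0.41 for Mcm4 and 0.54 each for Mcm2 and Mcm5. Mcm7 read 7.25 in Trib1-/- MDP, 7.70 in wild-type MDP, 7.87 in Trib1-/- GMP and 8.17 in wild-type GMP. It differed by -0.45 in MDP, while its 3 other probe sets read -0.05, 0.001 and 0.26, so its direction in MDP is unsettled. In wild-type MDP all 6 were below wild-type GMP, with Mcm6 2.30-fold and Mcm3 2.12-fold lower. In the knockout the median of the 6 between MDP and GMP was -0.17, against -0.85 in wild type. The promoters printed above are of 4 of these 6 genes; the Mcm2 window held no TTTNNCGC, nor did the second window of Mcm7, which is not printed.

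Of the genes that switch the helicase on, those of the GINS complex were lower in knockout GMP. Gins4 read 4.10 in Trib1-/- MDP, 4.37 in wild-type MDP, 4.73 in Trib1-/- GMP and 5.58 in wild-type GMP, a difference of -0.85 between the GMP genotypes on its only probe set. Gins1, Gins2 and Gins3 differed by -0.73, -0.40 and -0.26 in GMP. In MDP the GINS genes had no common direction: Gins1 differed by 0.16, Gins3 by 0.51 (its other probe set was lower), Gins2 by -0.55 and Gins4 by -0.27. Mcm10, which helps start unwinding, read 3.99 in Trib1-/- MDP, 4.03 in wild-type MDP, 4.99 in Trib1-/- GMP and 4.90 in wild-type GMP. It separated the progenitors and not the genotypes, being 2.01-fold lower in MDP in the knockout and 1.83-fold lower in wild type, although its second probe set read -0.10 and -0.25. Cdc45, the helicase cofactor, depended on the probe set: the brighter one read 0.47 in GMP and -0.13 in MDP, the other -0.61 and 0.30. Between the wild-type progenitors these probe sets read 0.44 and -1.79.

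The polymerase genes differed little between the GMP genotypes except Prim1, the catalytic primase subunit, at -0.67, with a second probe set at -0.55. Pola1, the catalytic subunit of polymerase alpha, differed by -0.09 in GMP and 0.30 in MDP. Pole, the catalytic subunit of the leading strand polymerase epsilon, read 5.22 in Trib1-/- MDP, 4.31 in wild-type MDP, 5.31 in Trib1-/- GMP and 5.18 in wild-type GMP. Only the wild-type MDP value was low, and the difference of 0.91 in MDP was the second largest of the 39 genes. Pold1, the catalytic subunit of polymerase delta, read 0.08 in GMP and -0.08 in MDP, and its weaker probe set -0.46 and 0.64. Both MDP values of that weaker probe set were below the floor.

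The clamp gene Pcna read 8.55 in Trib1-/- MDP, 8.49 in wild-type MDP, 8.75 in Trib1-/- GMP and 9.13 in wild-type GMP. It was highest in wild-type GMP by 0.38, and the MDP arrays lay within 0.06 of each other. The small clamp loader genes Rfc2, Rfc4 and Rfc5 were lower in the knockout of both progenitors on the probe sets used, while Rfc1, the large subunit and not in the set, differed by -0.02 in GMP and 0.65 in MDP. Rfc5 read 4.16 in Trib1-/- MDP, 4.33 in wild-type MDP, 4.64 in Trib1-/- GMP and 5.56 in wild-type GMP, a difference of -0.92 in GMP and -0.17 in MDP. Rfc2 read 5.61 in Trib1-/- MDP, 5.96 in wild-type MDP, 6.23 in Trib1-/- GMP and 6.69 in wild-type GMP, and all 3 of its probe sets were lower in both knockouts. Rfc4 differed by -0.28 in GMP and -0.46 in MDP. Rfc3 differed by -0.03 in GMP, where its other probe set read 0.07, and by -0.60 in MDP, and was the only gene of the set highest in wild-type MDP, at 5.30. Fen1, the flap nuclease of the lagging strand, differed by -0.42 in GMP and 0.12 in MDP on the probe set used, and by -1.29 and 0.63 on its weaker one. Lig1, the ligase that seals the fragments, differed by -0.23 and 0.36.

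The widest differences were among the genes of nucleotide synthesis. Dut, whose enzyme removes dUTP so that uracil stays out of DNA, read 6.997 in Trib1-/- MDP, 6.70 in wild-type MDP, 7.52 in Trib1-/- GMP and 8.74 in wild-type GMP. It was 2.33-fold lower in Trib1-/- GMP than in wild type and 4.11-fold lower in wild-type MDP than in wild-type GMP. Its second probe set, near the floor, read 0.06 in the GMP genotypes. Between the wild-type progenitors that probe set read -0.73, where the one used read -2.04. The wild-type MDP value of the second probe set, 2.78, was below the floor. Tk1, the thymidine salvage kinase, read 5.59 in Trib1-/- MDP, 5.27 in wild-type MDP, 4.65 in Trib1-/- GMP and 5.73 in wild-type GMP. It was 2.11-fold lower in knockout GMP, and unlike most of the set it was lowest in that array.

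Cad, which encodes the enzyme of the first steps of pyrimidine synthesis, read 4.59 in Trib1-/- MDP, 2.76 in wild-type MDP, 4.57 in Trib1-/- GMP and 4.83 in wild-type GMP. Only the wild-type MDP value stood apart, and it lay below the floor. The difference in MDP was 1.83 as deposited and 1.30 with the low value raised to the floor. The second probe set read 3.58 in Trib1-/- MDP and 2.58 in wild-type MDP, a difference just under 2-fold. Its wild-type MDP value was below the floor too, so the size of this difference is uncertain as well. Between the progenitors Cad differed by 0.02 in the knockout and by -2.07 in wild type, or -1.54 with the low value raised to the floor. Rrm2, the regulated subunit of ribonucleotide reductase, read 9.69 in Trib1-/- MDP, 9.48 in wild-type MDP, 9.30 in Trib1-/- GMP and 9.38 in wild-type GMP, a range of under 0.4. That probe set differed by -0.09 between the GMP genotypes and by 0.39 between the knockout progenitors. The second probe set of Rrm2 read 0.62 and -0.49 there, and the third -0.05 and 0.14. Rrm1, the partner of Rrm2, differed by -0.30 in GMP and -0.11 in MDP, but its second probe set read 0.17 in MDP. Tyms, which makes thymidylate, read 4.57 in Trib1-/- MDP, 4.59 in wild-type MDP, 4.78 in Trib1-/- GMP and 4.53 in wild-type GMP. All 3 of its probe sets that reached the floor on some array were higher in Trib1-/- GMP, by 0.24 to 0.61. The second was below the floor in wild-type GMP and the third on both GMP arrays. Only the 0.24 of the probe set used thus rests on GMP values above the floor.

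Among the regulators of entry into S phase, Ccne2 and E2f1 were both highest in wild-type GMP on the probe sets used. Ccne2, a cyclin E gene, read 2.94 in Trib1-/- MDP, 2.79 in wild-type MDP, 2.93 in Trib1-/- GMP and 3.99 in wild-type GMP. Only the wild-type GMP value was above the floor, so the 2.09-fold difference is uncertain, and it was -0.70 with the low value raised to the floor. Between the MDP genotypes nothing can be said of its direction. E2f1, the E2F activator, read 4.16 in Trib1-/- MDP, 3.83 in wild-type MDP, 3.85 in Trib1-/- GMP and 4.77 in wild-type GMP. Its difference was -0.92 in GMP and 0.33 in MDP, while the other probe sets read 0.09 and -0.64 in GMP and 0.01 and 0.90 in MDP. The second probe set of E2f1 was highest in Trib1-/- GMP, at 3.59, and the third in Trib1-/- MDP, at 3.80. On the other arrays the third was below the floor. Ccne1, the other cyclin E gene, stayed between 4.44 and 4.57 on the 4 arrays on the probe set used. Its second probe set differed by -0.30 in GMP and -0.61 in MDP, where the one used read 0.06. The Trib1-/- MDP value of that second probe set, 3.175, was below the floor. Of the chromatin genes, Chaf1b, a subunit of the histone chaperone CAF-1, differed by -0.39 in GMP and 0.16 in MDP, and was just under 2-fold lower in wild-type MDP than in wild-type GMP. Uhrf1, which brings the maintenance methyltransferase to new DNA, differed by -0.001 and 0.23 between genotypes.

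**Figure D4:**
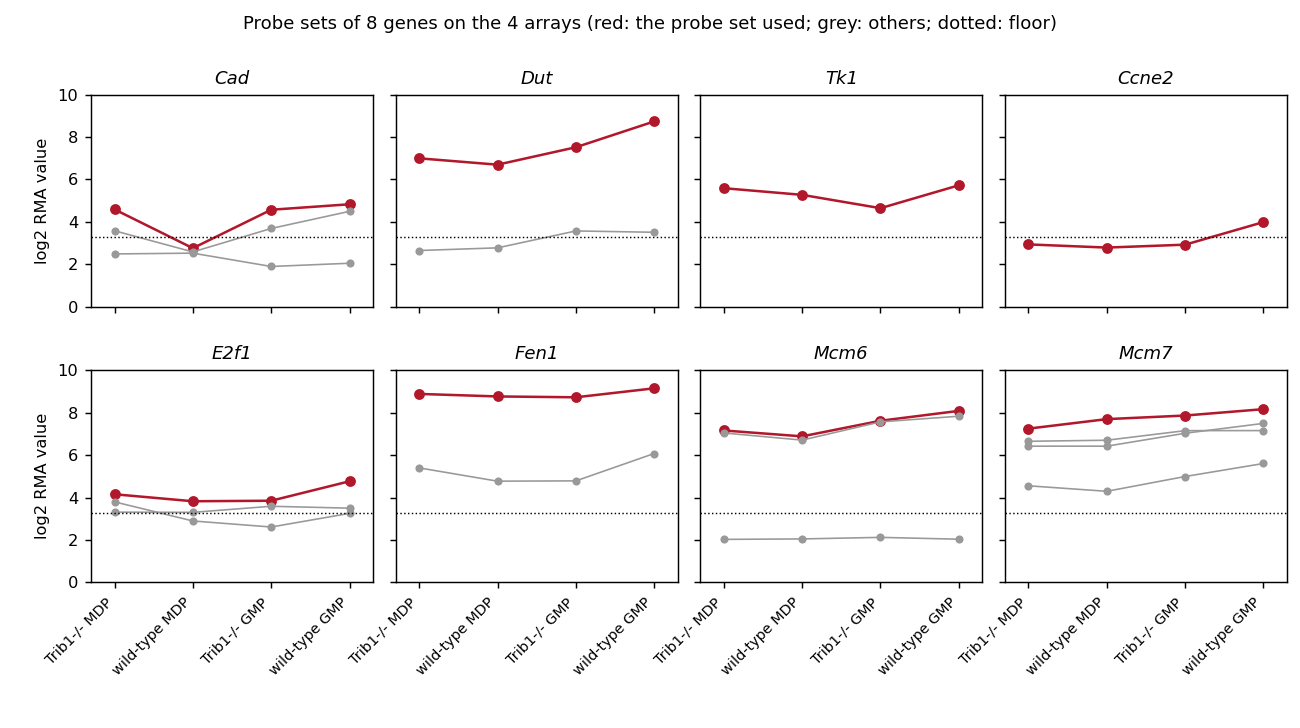
Log2 RMA values (vertical axis) of every probe set of 8 genes on the 4 arrays, with the probe set used in red, others in grey and the floor of 3.29 dotted. The wild-type MDP value of Cad lies below the floor, and the second probe set of Fen1 varies more between arrays than the one used.

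Probe sets of the same gene mostly agreed in GMP and less so in MDP. Here a probe set counts as above the floor if it reached it on at least 1 of the 4 arrays. Some directions thus rest on values below the floor, such as that of the third Tyms probe set in GMP. Of the 28 genes with more than 1 probe set above the floor, 19 had all of them lower and 2 all higher in Trib1-/- GMP, and 7 were mixed (Cdc45, Dut, E2f1, Orc1, Pold1, Rfc3 and Rrm2). In Trib1-/- MDP 13 had all of them higher, 4 all lower and 11 were mixed. Between the knockout progenitors 9 had all of them lower in MDP, 4 all higher and 15 were mixed. Between the wild-type progenitors 22 had all of them lower, 2 all higher and 4 were mixed. Counted by probe set, 64 of the 77 above the floor were lower in Trib1-/- GMP, and 53 of 77 were higher in Trib1-/- MDP. With 1 probe set per gene, 55.2% of all genes were lower in Trib1-/- GMP and 51.3% higher in Trib1-/- MDP. The splits by several probe sets are not given over all genes, so they describe agreement within the set only.

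Other genes of the same pathways were counted from lists drawn up for this comparison with earlier results of these data known. They were read on the same 4 arrays and are not independent of the set. Of 33 further replication genes above the floor, 25 were lower in Trib1-/- GMP (75.8%, against 55.2% of all genes, median -0.18). At least 2-fold lower were 2 (6.06%, against 3.16%): Orc5 (-1.12), an origin recognition subunit, and Rpa3 (-1.07), of the protein that coats single strands. In Trib1-/- MDP 24 of the 33 were higher (72.7%, against 51.3% of all genes, median 0.11), none at least 2-fold, with Prim2, the large primase subunit, at 0.75. Between the knockout progenitors 19 were lower in MDP (57.6%, near the 51.3% of all genes, median -0.07). Pold2, a polymerase delta subunit, was at -1.23 and below the floor in Trib1-/- MDP. Between the wild-type progenitors 27 were lower in MDP (81.8%, against 52.6% of all genes, median -0.34), 5 of them at least 2-fold (15.2%, against 12.4%). The fork protection gene Tipin was at -1.70 and its partner Timeless at -1.45.

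The 21 mitosis genes above the floor gave another order. In Trib1-/- GMP 16 were lower (76.2%, against 55.2% of all genes, median -0.44). At least 2-fold lower were 4 (19.0%, against 3.16%), with Ube2c, the enzyme that works with the anaphase-promoting complex, at -1.45. In Trib1-/- MDP the median was -0.07. Between the knockout progenitors the mitosis median was 0.34 with 15 of 21 higher in MDP (71.4%, against 48.4% of all genes), beside -0.17 for the replication genes. Between the wild-type progenitors it was -0.03 with 11 of 21 lower in MDP (52.4%, against 52.6% of all genes), beside -0.64 and 34 of 39 for the replication genes. The 13 cytosolic ribosomal protein genes measured were all lower in Trib1-/- GMP (100%, against 55.2% of all genes, median -0.88). Their summed linear signal was 4862 in Trib1-/- MDP, 6365 in wild-type MDP, 7742 in Trib1-/- GMP and 11844 in wild-type GMP. Their part in the replication gene differences was not tested.

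Among other genes that control entry into S phase, the widest differences were between progenitors. Of 23 above the floor, 17 were lower in Trib1-/- GMP (73.9%, against 55.2% of all genes, median -0.15). In Trib1-/- MDP 14 were higher (60.9%, against 51.3%, median 0.20). Rbl2, a relative of the retinoblastoma gene, at -1.01 in GMP, was the only gene of these at least 2-fold apart between genotypes. Myc read 5.29 in Trib1-/- MDP, 5.46 in wild-type MDP, 6.78 in Trib1-/- GMP and 7.56 in wild-type GMP. Ccnd1, a cyclin D gene, was the reverse, at 6.32 in Trib1-/- MDP, 6.52 in wild-type MDP, 4.91 in Trib1-/- GMP and 4.28 in wild-type GMP. E2f7, an E2F repressor, differed by -0.42 in GMP and 0.55 in MDP. Of 6 genes for inhibitors of cyclin-dependent kinases above the floor, 5 were higher in wild-type MDP than in wild-type GMP (83.3%, against 47.2% of all genes, median 0.45). Cdkn1b, which encodes p27, was 1.28 higher in Trib1-/- MDP than in Trib1-/- GMP.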

How the data were processed

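RNA of 4 samples was amplified with the NuGEN Ovation system and hybridised to an Affymetrix mouse array, per the labels' protocols. The authors deposited RMA values, per the submitters' processing notes, which are read here as log2; RMA corrects background, makes the array distributions alike and summarises probe sets. The log2 scale is inferred from the range, 0.14 to 14.5, and RMA hides any difference in total RNA per cell. Of 45101 probe sets, 64 were controls, 34945 had 1 symbol in the platform annotation, 932 several and 9160 none. Where a gene had several probe sets, the one with the highest average signal was used. All 39 measured genes were found in RefSeq by gene identifier, with 0 symbols changed. Genes were counted at a log2 difference of at least 1, with no test, and medians are beside those of all genes. The counting was tested on simulated data. Alternatives were other probe set rules, no floor or a higher one, cyclic loess (limma 3.58.1, 3 iterations), centring, 32 added to linear values, and other fold limits. Values on all 4 arrays are given for genes at least 2-fold apart between genotypes, the 5 largest in each progenitor comparison, and 10 genes set by role; those of Cdt1, Pole, Ccnd1, Myc and Kit were added after being seen. The genes and lists were chosen with earlier results of these data known.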

Additional observations from a re-analysis of the deposited data

Results flagged for a closer look

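The difference between genotypes had opposite signs in the MDP and GMP arrays for the replication genes as a group. Their median was 0.16 in MDP and -0.30 in GMP, 0.45 apart. The MDP difference minus the GMP difference was above 0 for 29 of the 39 genes (median 0.55), against 6475 of the 11653 genes above the floor (median 0.09). Opposite signs at least 1 apart on the log2 scale were found for 6 genes, given here as the MDP difference minus the GMP difference. The share of all genes at that limit is not given, so the 6 are not read as a result about the set. These were Cad (2.09), Dut (1.52), Tk1 (1.39), E2f1 (1.25), Ccne2 (1.21) and Mcm5 (1.03). With 1 array per group these differences were not tested. The wild-type MDP value of Cad lies below the floor, as do both MDP values and the Trib1-/- GMP value of Ccne2. With values raised to the floor Ccne2 differed by 0 in MDP and by -0.70 in GMP, so its opposite sign rests on values below the floor.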

How the results depend on the processing

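No paired analysis was possible because each group has 1 array and no result comes from a test. The direction of the 4 medians was the same under every alternative that was run. The median of the replication genes ranged from -0.38 to -0.18 for the GMP genotypes, from 0.098 to 0.21 for the MDP genotypes, from -0.20 to -0.081 between the knockout progenitors and from -0.79 to -0.36 between the wild-type progenitors. The counts at 2-fold were less stable. Shares of all genes at the changed settings are not given, so the counts below describe stability and do not set the replication genes against all genes. The 3 genes at least 2-fold lower in Trib1-/- GMP were 2 with values raised to the floor. They were 1 after centring each array on its median and 1 with 32 added to the linear value. They were 9 at 1.5-fold, 0 at 4-fold and 4 when the less specific probe sets (x and s types) were dropped. Dut was at -0.58 when its probe sets were averaged, no longer 2-fold. The gene at least 2-fold higher in Trib1-/- MDP, Cad, was lost (0) when all of its probe sets were averaged (0.93), when the less specific ones were dropped, with 32 added and at 4-fold, and there were 2 at 1.5-fold. It kept its call, at 1.41, with the mean of the probe sets above the floor. At 1.5-fold 1 gene was lower there. The 7 lower in wild-type MDP than in wild-type GMP were 6 with values raised to the floor and 2 with 32 added. They were 21 at 1.5-fold, 2 at 4-fold and 10 without the less specific probe sets, and 1 was higher at 1.5-fold. The gene lower in Trib1-/- MDP than in Trib1-/- GMP, Mcm10, was lost (0) with the mean of all probe sets, the mean of those above the floor (an alternative added after seeing the data), centring, 32 added and 4-fold. At 1.5-fold 4 were lower and 1 higher. No called difference of a gene changed sign. The median of all genes stayed within 0.1 of 0 under the scaling alternatives. Weak signals near the floor, such as those of Cad in wild-type MDP and of Ccne2, limit the folds.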

Other observations

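Genes of purine and thymidylate supply outside the replication set had wide differences between the wild-type progenitors. Of 18 further nucleotide synthesis genes above the floor, 15 were lower in wild-type MDP than in wild-type GMP (83.3%, against 52.6% of all genes). Of them 7 were at least 2-fold lower (38.9%, against 12.4%), and the median was -0.64. Pfas (-2.17), Gart (-2.14) and Adsl (-1.80), of purine synthesis, and the thymidylate kinase gene Dtymk (-2.01) had the largest differences. Between the MDP genotypes 12 of the 18 were higher in the knockout (66.7%, against 51.3% of all genes), none at least 2-fold, with Adsl at 0.99, Dctd at 0.97 and Pfas at 0.88. The cell cycle genes of the mitosis list did not share the difference between the wild-type progenitors, with a median of -0.03. No test was made of any of these values.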
